A study of Mus musculus with 24 samples.

Results

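Mouse basophils that lack tristetraprolin (TTP-KO, below KO) and wild-type (WT) basophils were compared in how their total RNA changed during the first hour after antigen was washed away. The comparison is a difference of changes: the change between 0 and 1 h in KO minus the change between 0 and 1 h in WT, on the log2 scale. It rests on 12 of the 24 libraries of the study, which were the 3 libraries of each of 4 groups: KO at 1 h, KO at 0 h, WT at 1 h and WT at 0 h. All 4 groups were bone marrow cultures grown for 7 days in IL-3 at 0.3 ng/mL, loaded from day 6 with hapten-specific IgE at 1 µg/mL, and kept from then on with 4-thiouridine (s4U, a modified nucleoside that cells build into newly made RNA) at 150 µM. Cells with surface CD49b were enriched on magnetic beads, exposed for 1.5 h to the hapten on ovalbumin (TNP-OVA) at 10 ng/mL together with s4U, and washed, so that 0 h is the end of the antigen pulse. The labels do not state the knockout allele, the age of the mice, or whether a group's 3 libraries come from different animals. All p-values therefore reflect the spread among libraries alone, part or all of which may be technical. In the main fit this spread was estimated over all 24 libraries, those of the later times included.

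The question set for the comparison was whether the KO to WT gap that widens in the first hour comes from slower loss of labelled RNA. The values below describe total RNA and do not answer it. The part of each message estimated to carry s4U was not analysed here, so a slower loss and a higher synthesis cannot be told apart in these values. In bulk RNA, fewer cells of a type and less RNA per cell cannot be told apart either.

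Tristetraprolin, encoded by Zfp36, binds AU-rich elements in the 3' untranslated regions of messenger RNAs and recruits the CCR4-NOT deadenylase, which shortens the poly(A) tail and leads to decay of the message. It is best known for limiting Tnf in macrophages, and its own message carries such elements. Basophils respond to IgE crosslinking with histamine, lipid mediators, type 2 cytokines such as IL-4 and IL-13, and chemokines.

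Because the comparison concerns a factor that reads AU-rich elements, the elements of Areg, Ccl3 and Plaur, 3 mediator genes with a called difference, are shown together with those of Tnf and Cxcl2, 2 well-studied targets. Each line gives 30 bases or fewer of the annotated 3' untranslated region, 5' to 3' on the sense strand, from GENCODE M21 transcripts (GRCm38). Capitals mark every ATTTA pentamer.
Areg (chromosome 5): taATTTATTTAatATTTAagtgttATTTAt
Ccl3 (chromosome 11): attgtcatacttgtatttgtgactATTTAt
Plaur (chromosome 7): tattattatcattgttattgctctaATTTA
Cxcl2 (chromosome 5): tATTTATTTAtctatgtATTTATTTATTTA
Tnf (chromosome 17): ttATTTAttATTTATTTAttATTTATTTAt
The search covered the sense strand for the heptamer TATTTAT, whose middle is the pentamer, so every heptamer match is also a pentamer match. The heptamer occurred 1 time in the 253 bases of the Areg region, 1 time in the 409 bases of Ccl3, 7 times in the 1494 bases of Cxcl2 and 8 times in the 764 bases of Tnf. In the 496 bases of Plaur these letters did not occur, and the pentamer occurred 2 times. Of the 12734 tested genes with an annotated 3' untranslated region, 30.7% held the heptamer and 70.3% the pentamer, and the median length was 1183 bases. Among genes of similar length (within 20%), 8.65% of 775 held the heptamer at the length of Areg and 9.89% of 1001 at that of Ccl3. The shares were 13.5% of 1168 at the length of Plaur, 33.9% of 1915 at that of Cxcl2 and 19.7% of 1451 at that of Tnf. The heptamer did not mark the called genes alone. It occurred 1 time in the 302 bases of Ccl4, which had no called difference, and did not occur in the 858 bases of Ccl24, which had one. The other core genes without a called difference all held it. Besides Cxcl2 and Tnf these were Ptgs2 (6 times), Zfp36, Zfp36l1 and Zfp36l2 (3 times each), and Il13, Il6 and Csf1 (1 time each). Among the other called genes searched, Edn1 held it 1 time, with a more negative change in KO, and Prss37 and Col18a1 did not hold it. A match is a description of the letters and not a measured binding site.

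The 12 libraries held 14689038 to 21694613 reads each. Levels are given as TMM-scaled CPM (reads scaled to a common library total), log2 changes as mean ± SE, and calls were made at a threshold of 0.05 on the p of edgeR's quasi-likelihood test, adjusted by Benjamini and Hochberg's method over all 12936 genes tested. Libraries carry the letters A, B and C of the deposited table and are listed in that order. The following basophil genes had reads in every library. Mcpt8, a basophil protease, lay between 12800 and 15110 CPM, Prss34 between 10460 and 12500 CPM and Cpa3 between 2144 and 3166 CPM. The receptor genes were lower. Cd200r3 lay between 917.7 and 1278 CPM, and Fcer1a, the IgE-binding receptor chain, between 203.3 and 417.6 CPM. Ms4a2 lay between 105.1 and 346.2 CPM and Il3ra between 105.1 and 185.1 CPM. The summed level of 25 monocyte and macrophage markers was higher in KO at both times, at 3311 to 3721 CPM in KO at 1 h and 3898 to 3951 CPM in KO at 0 h, against 1273 to 1471 CPM in WT at 1 h and 1563 to 1748 CPM in WT at 0 h. None of the 25 was at 0 in a group. The sum is weighted to its abundant members, and single members did not all follow it. Lyz2 and Gpnmb were higher in KO at both times, while Ly6c2 and Ccr2 were not higher in KO at either. The part of monocytes and macrophages in the results below was not tested. Lyz2, a macrophage and neutrophil lysozyme, was at 914 CPM in KO at 1 h and 976 CPM in KO at 0 h, and at 350 CPM in WT at 1 h and 482 CPM in WT at 0 h, a difference of changes of 0.37 ± 0.17 (edgeR adjusted p = 1.00).

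The first-hour change differed between the genotypes for 8 genes. It was more positive in KO for 5, which were Il4, Areg, Ccl3, Plaur and Ccl24, or 0.0387% of the genes tested. It was more negative in KO for 3, which were Edn1, Prss37 and Col18a1, or 0.0232%. Prss37 and Col18a1 fell outside the rule for named genes and are named after their values were seen. At an unadjusted p under 0.05, 270 genes were higher (2.09%) and 324 lower (2.5%). Another count model, DESeq2, called 43 higher and 47 lower. The calls for Il4, Areg, Ccl3 and Plaur rest on genes with reads in every library, while each of the other 4 includes a group with few or no reads. Leaving out the library KO 0 h B lowered the count of higher calls to 3, without Plaur and Ccl24, and the count of lower calls was 6 without WT 0 h A, 5 without WT 1 h B and 5 without KO 1 h A.

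Il4, the type 2 cytokine that basophils are best known for, had 5809, 6110 and 6718 CPM in KO at 1 h and 3556, 2655 and 3531 CPM in KO at 0 h. In WT it had 3923, 2767 and 2894 CPM at 1 h and 3045, 3388 and 3109 CPM at 0 h. At 1 h every KO library was above every WT library, and at 0 h the genotypes overlapped. The message rose 1.91-fold in KO (log2 change 0.94 ± 0.11, edgeR adjusted p = 7.72e-08), while the WT change was 0.01 ± 0.11 (adjusted p = 1). The difference of changes was 0.93 ± 0.16 (adjusted p = 0.00235). The KO minus WT gap was thus 0.96 ± 0.11 at 1 h and 0.03 ± 0.11 at 0 h on the log2 scale.

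Areg encodes amphiregulin, a growth factor of the EGF family made by type 2 immune cells. It had 1918, 1983 and 1795 CPM in KO at 1 h and 1092, 1210 and 1213 CPM in KO at 0 h, against 744, 608 and 754 CPM in WT at 1 h and 817, 905 and 842 CPM in WT at 0 h. All KO libraries at 1 h were above all others, and WT libraries at 1 h were below all others. It rose in KO (0.70 ± 0.11, edgeR adjusted p = 2.83e-05), and the WT change was -0.28 ± 0.11 (adjusted p = 0.229). The difference of 0.98 ± 0.16 passed the test (adjusted p = 0.000726).

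Ccl3, the chemokine MIP-1α, was among the most abundant messages of these cells. It had 43099, 41361 and 36151 CPM in KO at 1 h and 39140, 36854 and 39185 CPM in KO at 0 h, against 12240, 13883 and 12837 CPM in WT at 1 h and 20637, 18278 and 20838 CPM in WT at 0 h. The KO libraries of the 2 times overlapped, and the WT libraries did not. Ccl3 fell in WT (-0.62 ± 0.09, edgeR adjusted p = 2.16e-06), and its KO change was 0.07 ± 0.09 (adjusted p = 0.899). The difference was 0.68 ± 0.12 (adjusted p = 0.00378).

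Plaur, the urokinase receptor, followed the same course at a lower level. It had 291, 288 and 255 CPM in KO at 1 h and 326, 185 and 272 CPM in KO at 0 h, against 122, 118 and 118 CPM in WT at 1 h and 239, 227 and 250 CPM in WT at 0 h. At 1 h every KO library was above every WT library, and at 0 h the genotypes overlapped. Plaur fell in WT to 0.499 of its 0 h level (it fell by 1.00 ± 0.15 on the log2 scale, edgeR adjusted p = 1.45e-05), with a KO change of 0.09 ± 0.15 (adjusted p = 0.95) and a difference of 1.09 ± 0.22 (adjusted p = 0.0186). Library KO 0 h B, at 185 CPM, was the lowest KO library. Without it the difference was 0.90 and the adjusted p 0.134.

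**Figure D1:**
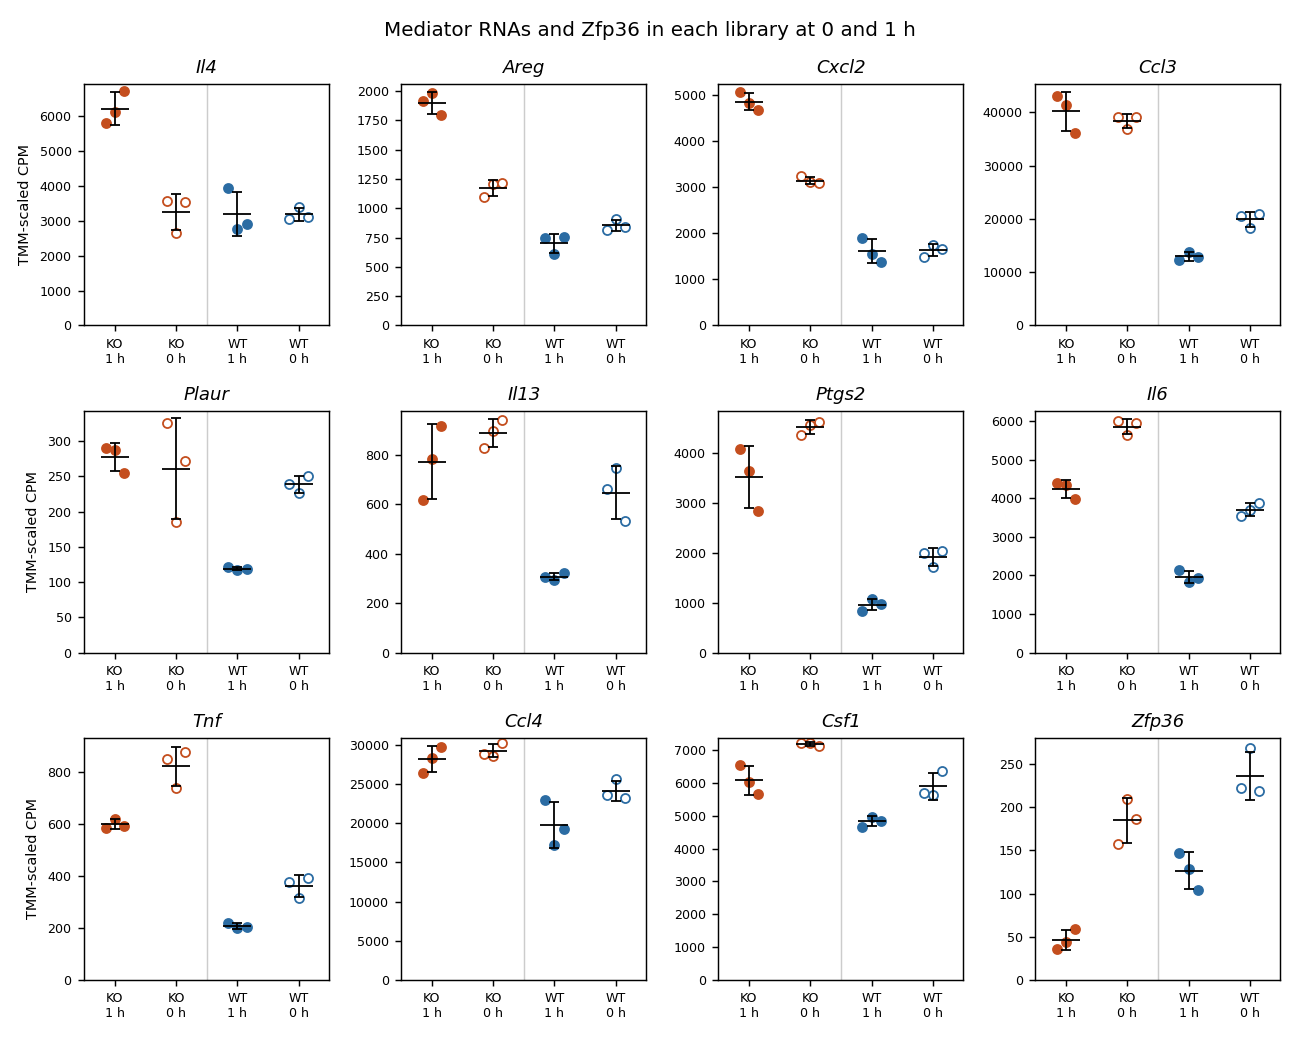
TMM-scaled CPM of 12 named genes in each library (points, filled at 1 h and open at 0 h), with KO left of WT; bars are mean ± SD of 3 libraries. Il4, Areg and Cxcl2 are higher in every KO library at 1 h than in any KO library at 0 h, while Ccl3 and Plaur overlap between the times in KO and are lower in every WT library at 1 h than in any WT library at 0 h.

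By their called changes, the 4 genes fell into 2 pairs. Il4 and Areg rose in KO with no called change in WT, and Ccl3 and Plaur fell in WT with no called change in KO. A change that was not called is not an absent one. The WT change of Areg was -0.28 ± 0.11, with all WT libraries at 1 h below those at 0 h, while that of Il4 was 0.01 ± 0.11. None of the 4 had a called change in both genotypes.

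The other mediators among the core genes had positive differences that did not pass. Cxcl2, a neutrophil chemokine, had 5063, 4827 and 4687 CPM in KO at 1 h and 3234, 3108 and 3086 CPM in KO at 0 h, against 1899, 1552 and 1387 CPM in WT at 1 h and 1485, 1743 and 1663 CPM in WT at 0 h. It rose in KO (0.63 ± 0.10, edgeR adjusted p = 3.73e-05) with a WT change of -0.02 ± 0.10, and the difference of 0.64 ± 0.14 narrowly missed the threshold (adjusted p = 0.0609). In called changes this is the pattern of Il4 and Areg, short of a called difference. Cxcl2 passed in 5 of 18 alternative analyses, among them the fit on the 12 libraries alone (adjusted p = 0.0161).

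Il13, the second type 2 cytokine, had 617, 782 and 918 CPM in KO at 1 h and 829, 896 and 942 CPM in KO at 0 h, against 304, 294 and 324 CPM in WT at 1 h and 662, 745 and 532 CPM in WT at 0 h. The KO libraries at 1 h spread widely and overlapped those at 0 h, whereas the WT libraries at 1 h lay close together below all others. Il13 fell in WT (-1.07 ± 0.20, edgeR adjusted p = 0.000272), and the KO change was -0.20 ± 0.19 (adjusted p = 0.787). The difference of 0.87 ± 0.27 was close in size to that of Il4 with a larger error, and did not pass (adjusted p = 0.97). It passed in 2 of 18 alternative analyses, the fit on the 12 libraries alone (adjusted p = 0.0197) and the fit with no filter (adjusted p = 0.00786).

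Ptgs2, the inducible cyclooxygenase that starts prostaglandin synthesis, had 4076, 3643 and 2841 CPM in KO at 1 h and 4364, 4561 and 4625 CPM in KO at 0 h, against 843, 1078 and 969 CPM in WT at 1 h and 2005, 1718 and 2037 CPM in WT at 0 h. It fell in WT (-0.99 ± 0.13, edgeR adjusted p = 8.06e-07). The KO change was -0.36 ± 0.13 (adjusted p = 0.177) and the difference 0.64 ± 0.19 (adjusted p = 0.715). In each genotype all libraries at 1 h lay below those at 0 h. It passed in 2 of 18 alternative analyses, the fit on the 12 libraries alone (adjusted p = 0.0404) and the fit with no filter (adjusted p = 0.0215).

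Il6, an inflammatory cytokine, fell in both genotypes. It had 4400, 4348 and 3981 CPM in KO at 1 h and 6000, 5628 and 5939 CPM in KO at 0 h, against 2132, 1832 and 1929 CPM in WT at 1 h and 3538, 3703 and 3865 CPM in WT at 0 h. The 4 groups did not overlap. The log2 change was -0.46 ± 0.09 in KO (edgeR adjusted p = 0.000275) and -0.91 ± 0.09 in WT (adjusted p = 6.41e-11), and the difference of 0.45 ± 0.12 did not pass (adjusted p = 0.438).

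Tnf, the best-studied target of TTP, had 582, 619 and 590 CPM in KO at 1 h and 850, 736 and 875 CPM in KO at 0 h, against 218, 200.2 and 202 CPM in WT at 1 h and 374, 314 and 393 CPM in WT at 0 h. Again the 4 groups did not overlap. Tnf fell in WT (-0.80 ± 0.15, edgeR adjusted p = 0.000269). Its KO change was -0.46 ± 0.15 (adjusted p = 0.082), and the difference was 0.34 ± 0.21 (adjusted p = 1.00). Of the genes shown above, Tnf held 8 heptamers with this difference, and Cxcl2 held 7 with a difference of 0.64 ± 0.14. Areg and Ccl3 held 1 each, with 0.98 ± 0.16 and 0.68 ± 0.12, and Plaur held 0, with 1.09 ± 0.22. These differences were not tested against each other. The KO to WT gap of Tnf was already 1.19 ± 0.15 at 0 h, at the end of the pulse. Tnf was not alone in this. The gap at 0 h was 1.23 ± 0.13 for Ptgs2, 0.95 ± 0.09 for Ccl3 and 0.95 ± 0.10 for Cxcl2. It was 0.66 ± 0.09 for Il6, 0.46 ± 0.19 for Il13 and 0.45 ± 0.11 for Areg. Csf1 had 0.29 ± 0.09, Ccl4 0.28 ± 0.10, Plaur 0.13 ± 0.15 and Il4 0.03 ± 0.11.

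The chemokine Ccl4 (MIP-1β) and the macrophage growth factor Csf1 had no called change in either genotype. Ccl4 had 26479, 28357 and 29797 CPM in KO at 1 h and 28919, 28663 and 30253 CPM in KO at 0 h, against 23015, 17196 and 19288 CPM in WT at 1 h and 23643, 25662 and 23204 CPM in WT at 0 h. Its difference was 0.23 ± 0.14 (edgeR adjusted p = 1.00), which stands beside 0.68 ± 0.12 for its close relative Ccl3. The difference for Csf1 was 0.04 ± 0.12 (adjusted p = 1.00), with changes of -0.24 ± 0.09 in KO and -0.29 ± 0.09 in WT, neither called.

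The sign of the difference was positive for every mediator among the core genes, and turned only for Csf1, at -0.02 without library WT 0 h C and -0.01 without KO 1 h A.

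The difference for Zfp36 itself was negative. Its message had 36.0, 44.4 and 58.5 CPM in KO at 1 h and 158, 210.1 and 186 CPM in KO at 0 h, against 147, 128 and 104 CPM in WT at 1 h and 223, 269 and 219 CPM in WT at 0 h. The KO libraries thus still held Zfp36 reads. The labels do not say which stretch of the gene is deleted, and 3' tags outside that stretch do not check the knockout. Zfp36 fell in both genotypes, by 2.00 ± 0.24 on the log2 scale in KO (edgeR adjusted p = 8.67e-08) and by 0.90 ± 0.24 in WT (adjusted p = 0.0232), where DESeq2 did not call it. The difference of -1.09 ± 0.33 did not pass (adjusted p = 0.852). The related RNA-binding proteins Zfp36l1 and Zfp36l2 had differences of 0.28 ± 0.27 and 0.24 ± 0.18 (adjusted p = 1.00 each). Zfp36l1 averaged 172 ± 14 in KO at 1 h and 194 ± 35 CPM in KO at 0 h, against 112 ± 24 in WT at 1 h and 154 ± 9.3 in WT at 0 h (SD, n = 3 each). Zfp36l2 averaged 339 ± 28 in KO at 1 h and 311 ± 7.0 CPM in KO at 0 h, against 253 ± 28 in WT at 1 h and 273 ± 11 in WT at 0 h (SD, n = 3 each).

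**Figure D2:**
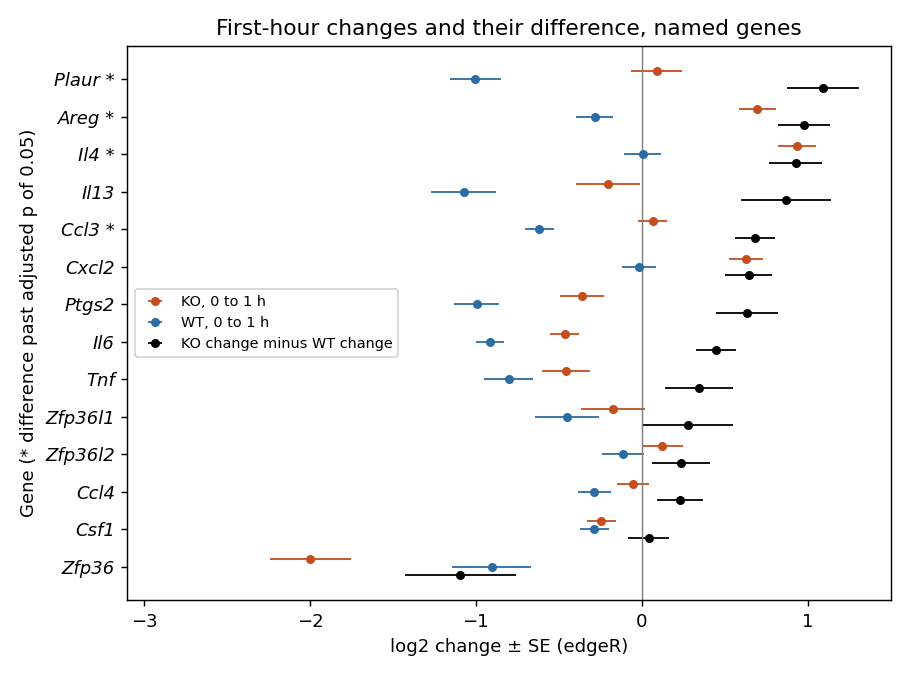
Log2 change between 0 and 1 h (± SE, edgeR) in KO (orange) and WT (blue), and the KO change minus the WT change (black), for the 14 core genes, ordered by that difference; an asterisk marks a difference past an adjusted p of 0.05. Plaur, Areg, Il4 and Ccl3 carry the asterisk, and Zfp36 is the one gene with a negative difference, at -1.09.

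The 4 low-abundance genes have to be read from their reads. The floors used for them cover counting error only, so each "at least" below leaves out the spread between libraries. Edn1, which encodes the vasoconstrictor endothelin-1, had 175, 227 and 105 reads in KO at 1 h and 57, 110 and 102 reads in KO at 0 h, against 208, 93 and 63 reads in WT at 1 h and 0, 0 and 0 reads in WT at 0 h. The difference was called (edgeR adjusted p = 0.000726). Against a floor of 3 counts over the WT libraries at 0 h, which held no read, WT at 1 h was at least 131-fold higher. KO at 1 h was 1.93-fold higher than KO at 0 h by the group means, a change that was not called (edgeR adjusted p = 0.581). At 1 h the genotypes overlapped. The call was lost with limma (adjusted p = 1).

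Ccl24, the chemokine eotaxin-2, had 88, 59 and 39 reads in KO at 1 h and 0, 0 and 0 reads in KO at 0 h, against 0, 0 and 19 reads in WT at 1 h and 18, 0 and 0 reads in WT at 0 h. KO at 1 h was at least 64.0-fold higher than KO at 0 h on the same floor (edgeR adjusted p of the difference = 0.0325). The call was lost without KO 0 h B, without WT 0 h A, in the fit on the 12 libraries alone (adjusted p = 0.997) and with limma (adjusted p = 1).

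Col18a1, a basement membrane collagen, had 92, 32 and 12 reads in KO at 1 h and 61, 0 and 94 reads in KO at 0 h, against 7, 54 and 152 reads in WT at 1 h and 0, 0 and 0 reads in WT at 0 h (edgeR adjusted p = 0.0186). On the same floor, which leaves out the spread between libraries, WT at 1 h was at least 81.6-fold higher than WT at 0 h. The call was lost without WT 1 h C, in the fit on the 12 libraries alone (adjusted p = 0.653) and with limma (adjusted p = 1). Prss37, a serine protease family member, had 1, 0 and 0 reads in KO at 1 h and 24, 29 and 0 reads in KO at 0 h, against 21, 34 and 19 reads in WT at 1 h and 0, 4 and 0 reads in WT at 0 h (edgeR adjusted p = 0.0325). This call was lost without any 1 of 5 libraries: KO 0 h B, KO 1 h B, KO 1 h C, WT 0 h A and WT 0 h C. It was also lost in the fit on the 12 libraries alone (adjusted p = 0.997) and with limma (adjusted p = 1). In both genes, libraries of 1 group ranged between no read and over 20 reads.

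**Figure D3:**
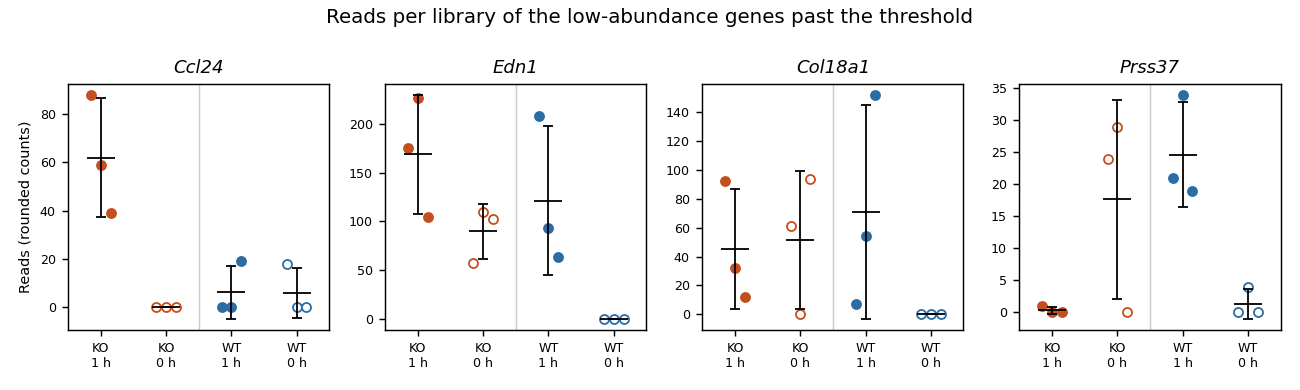
Reads per library (points, filled at 1 h and open at 0 h) of the 4 low-abundance genes whose difference passed, with KO left of WT; bars are mean ± SD of 3 libraries. Each call involves a group with at most 4 reads in any library: KO at 0 h for Ccl24, WT at 0 h for Edn1 and Col18a1, and KO at 1 h and WT at 0 h for Prss37.

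Set against all genes, the 2 genotypes shared much of their first-hour change. KO had 159 genes higher at 1 h (1.23% of those tested) and 195 lower (1.51%). WT had 136 higher (1.05%) and 166 lower (1.28%). The 2 lists share no library. Both held the same 78 genes as higher, or 49.1% of the KO list and 57.4% of the WT list, and the same 101 as lower, or 51.8% of the KO list and 60.8% of the WT list. In the edgeR fit 0 genes were called in opposite directions; at an unadjusted p under 0.05 in both there were 4 higher in KO and lower in WT and 7 the other way, limma gave 0 and 0, and DESeq2 gave 4 and 9. Across the 2916 genes of at least 50 CPM, the KO and WT changes had Pearson's r of 0.784 and Spearman's rho of 0.708, as a description, since genes are not independent replicates. Over all 12936 genes r was 0.101 and rho 0.256. The median SE of the difference was 0.267 for the abundant genes and 0.789 for all, so at low levels only large differences were detectable at this depth.

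**Figure D4:**
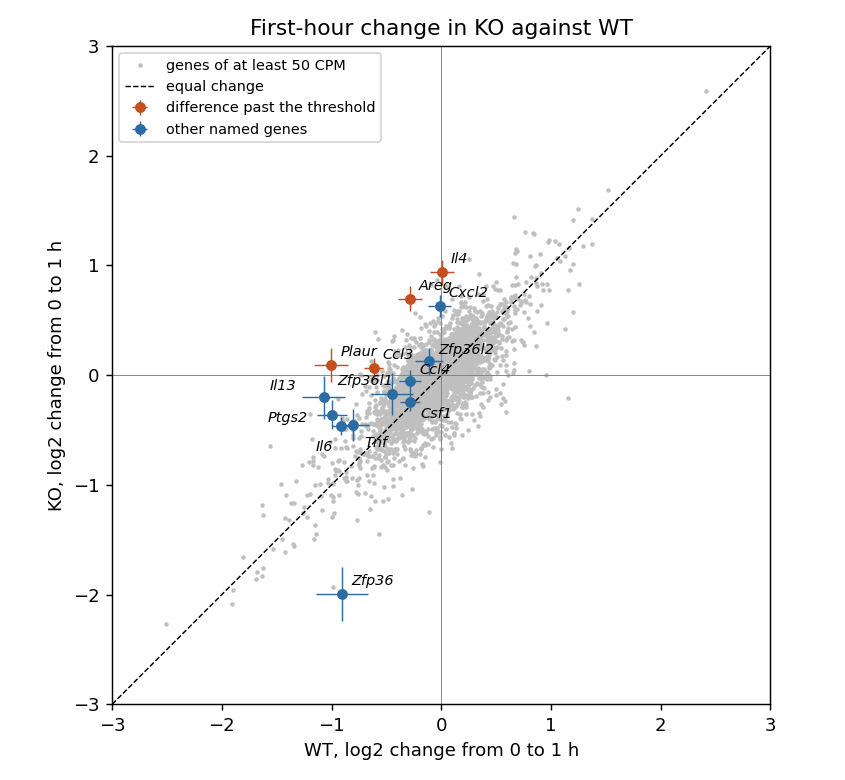
Log2 change between 0 and 1 h in KO (vertical) against WT (horizontal) for the 2916 genes of at least 50 CPM (grey), with the named genes of that level and their SE; the dashed line marks equal change. Il4, Areg, Ccl3 and Plaur stand above the line, Zfp36 stands below it, and most genes lie along it.

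The lists of genes around this response are described by their counts and medians beside those of all genes, whose median difference was -0.01 with 47.9% positive. The lists were chosen with earlier results of these data known, so their shares beside those of all genes are a description and not a test. All genes also include many at low levels, where the SE of the difference was larger. Of 36 cytokine and chemokine genes tested, 4 had a higher difference (Il4, Areg, Ccl3 and Ccl24), while DESeq2 called 6 and limma 2. The edgeR fit called 0 lower, as did DESeq2 and limma. At an unadjusted p under 0.05, 9 of the 36 were higher, which is 25% beside 2.09% of all genes, and 4 were lower, which is 11.1% beside 2.5% of all genes. The list's median difference was 0.06. In KO 5 of the 36 rose and 3 fell; in WT 2 rose and 5 fell.

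Il1b, an inflammatory cytokine, was among the 9, and is named with Lif and Osm after the values were seen. Its libraries lay between 718 and 958 CPM in KO at 1 h and between 637 and 778 CPM in KO at 0 h, against 375 to 428 CPM in WT at 1 h and 442 to 492 CPM in WT at 0 h. Its difference was 0.47 ± 0.19 (edgeR adjusted p = 1.00). Lif, a cytokine of the IL-6 family, had the opposite sign at -0.55 ± 0.26 (adjusted p = 1.00): it rose in WT (0.66 ± 0.19, adjusted p = 0.0444) and its KO change was 0.11 ± 0.19. Osm, oncostatin M, fell in both genotypes. It fell by 1.83 on the log2 scale in KO and by 1.63 in WT (adjusted p = 2.03e-16 and 1.46e-14), with group means of 1590 CPM at 1 h and 5666 CPM at 0 h in KO, and of 901 CPM at 1 h and 2793 CPM at 0 h in WT, and a difference of -0.20 ± 0.16 (adjusted p = 1.00).

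Of 56 genes listed as TTP targets in earlier work, which shares members with the cytokine list, 4 had a higher difference: Il4, Areg, Ccl3 and Plaur. DESeq2 called 6 higher and limma 3. The edgeR fit called 0 lower, as did limma, and DESeq2 called 1. At an unadjusted p under 0.05, 10 were higher (17.9%, beside 2.09% of all genes) and 5 lower (8.93%, beside 2.5%). The median difference was 0.07. In KO 3 of the 56 rose and 13 fell (median change -0.35), and in WT 2 rose and 19 fell (median -0.47). Socs3, a feedback inhibitor of cytokine receptors, fell by 1.09 in KO and by 1.00 in WT on the log2 scale, and its difference was -0.09 ± 0.19. Nfkbid, a nuclear IκB protein, fell by 1.21 in KO and by 1.25 in WT, with a difference of 0.04 ± 0.29.

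Pim1, a survival kinase on the same list, had a difference of the opposite sign. Its libraries lay between 647 and 803 CPM in KO at 1 h and between 751 and 905 CPM in KO at 0 h, and between 765 and 914 CPM in WT at 1 h and between 499 and 638 CPM in WT at 0 h. It rose in WT (0.54 ± 0.11, edgeR adjusted p = 0.00151), its KO change was -0.16 ± 0.11, and the difference of -0.70 ± 0.16 narrowly missed the threshold (adjusted p = 0.0609). Pim1 passed with scaling to library size only, and without WT 0 h C, WT 1 h B or KO 1 h A, each left out alone. It did not pass in the fit on the 12 libraries. Its relative Pim3 had a difference of 0.54 ± 0.19 (adjusted p = 1.00) and fell in WT (-0.58 ± 0.13, adjusted p = 0.00594). The list members named here and below beyond the core genes were picked as examples after their values were seen.

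Among the 47 immediate early genes, which transcription factors such as SRF switch on within minutes of receptor signalling, the called changes were mostly declines. In KO 18 fell and 0 rose (2 higher at an unadjusted p under 0.05, DESeq2 1, limma 0), and in WT 20 fell and 2 rose; the median changes were -0.65 in KO and -0.66 in WT. The difference was called for 0 of the 47 by edgeR, DESeq2 and limma alike, with 1 higher (Fosl1) and 0 lower at an unadjusted p under 0.05. Nr4a1, a nuclear receptor, lay between 566 and 653 CPM in KO at 1 h, against 2185 to 2491 CPM in KO at 0 h, and between 509 and 587 CPM in WT at 1 h, against 1788 to 2174 CPM in WT at 0 h. Its changes were -1.96 ± 0.14 in KO and -1.90 ± 0.14 in WT, and their difference was -0.06 ± 0.18. The transcription factor Egr1 gave -1.86 ± 0.13 in KO and -1.69 ± 0.13 in WT. For Dusp1, a phosphatase that turns off MAP kinases and a TTP target in macrophages, the changes were -1.49 ± 0.17 in KO and -1.46 ± 0.17 in WT, a difference of -0.04 ± 0.24.

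Among 25 calcineurin and NFAT genes, the pathway that drives cytokine transcription after receptor crosslinking, Il4 was the 1 gene with a higher difference. The list's median was 0.12, and 3 were higher and 1 lower at an unadjusted p under 0.05. None was lower by edgeR, DESeq2 or limma. Of 31 NF-κB targets and feedback genes 0 differed by any of these tools, and 0 at an unadjusted p under 0.05. Of 61 regulators of RNA decay 0 differed by these tools, with 1 higher and 2 lower at an unadjusted p under 0.05 and a median of -0.09. The deadenylase cofactor Btg2 fell by 1.76 in KO and by 1.62 in WT.

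Of 40 basophil identity and granule genes tested, Il4 alone differed, and the median was -0.03. Ms4a2, the β chain of the IgE receptor, fell by 1.11 in KO and by 0.99 in WT. The summed level of the 41 listed genes stood at 83810 to 88630 CPM in KO at 1 h and 82180 to 85090 CPM in KO at 0 h, against 80510 to 83020 CPM in WT at 1 h and 84460 to 85540 CPM in WT at 0 h. Of 25 monocyte and macrophage markers 0 had a called difference by edgeR, DESeq2 or limma, with 2 higher (Lyz2 and Ms4a6d) and 0 lower at an unadjusted p under 0.05, and a median of -0.06. Among the genes of protein and energy supply, the differences were small and leaned to the positive side. Of 72 ribosomal protein genes 57 were positive (79.2%, median 0.11), and of 39 respiratory chain genes 29 were positive (74.4%, median 0.21). No member of either list was called by edgeR, DESeq2 or limma, and at an unadjusted p under 0.05 there were 0 ribosomal and 3 respiratory chain genes. In the other marker and state lists edgeR also called 0 differences, as did limma. DESeq2 called 1 of 10 NK and T cell markers higher, and at an unadjusted p under 0.05 this list had 1 higher and 2 lower. At that threshold, which 2.09% of all genes passed as higher and 2.5% as lower, 3 of 17 neutrophil markers were higher (S100a8, Camp and Cxcr2, 17.6%), as were 1 of 8 eosinophil markers (12.5%) and 1 of 20 interferon response genes (5%), while 1 interferon response gene and 1 of 23 survival and apoptosis genes (Bcl2) were lower. The 9 mast cell markers and the 14 dendritic and B cell markers had 0 in either direction. The summed neutrophil markers stood at 4799 to 5421 CPM in KO at 1 h and 5077 to 5439 CPM in KO at 0 h, against 4710 to 5164 CPM in WT at 1 h and 5653 to 6070 CPM in WT at 0 h. Their part in the results was not tested.

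**Figure D5:**
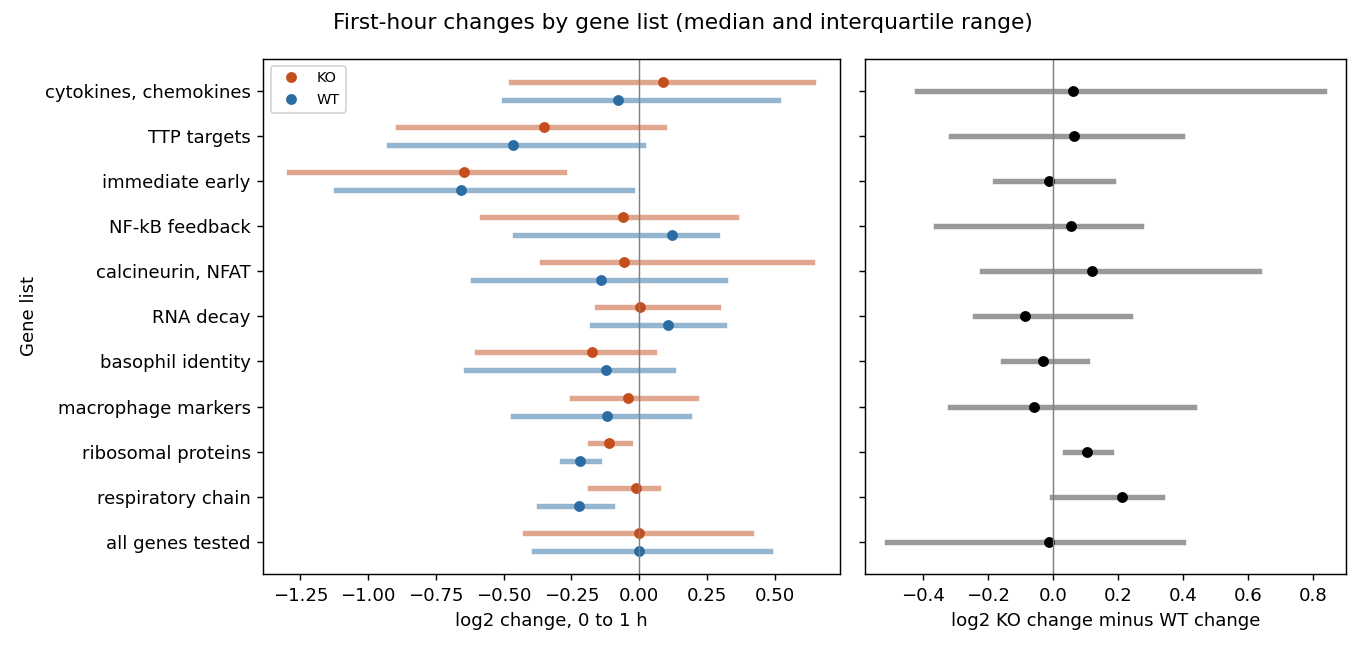
Median (point) and interquartile range (bar) of the log2 change between 0 and 1 h in KO (orange, above) and WT (blue, below) at left, and of the KO change minus the WT change at right, for 10 of the 18 gene lists and for all genes tested. The immediate early genes have medians of -0.65 in KO and -0.66 in WT, with a median difference of -0.01.

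For the next interval, the change between 1 and 2 h, the KO minus WT difference was 0.71 ± 0.16 for Il4 (edgeR adjusted p = 0.255), in the direction of the first hour. For Areg it was -0.35 ± 0.16, for Plaur -0.49 ± 0.22, for Ccl3 -0.02 ± 0.12 and for Cxcl2 -0.07 ± 0.14 (adjusted p between 0.804 and 1.00). Il6 gave -0.53 ± 0.12 and Tnf -0.89 ± 0.21 (adjusted p = 0.255 each). Il13 gave 0.68 ± 0.27 (adjusted p = 0.804), positive as for Il4, and Ptgs2 gave -0.57 ± 0.19 (adjusted p = 0.71). These values use the same 1 h libraries as the first-hour differences with the opposite sign, so the 2 sets are not independent. None of these genes passed the threshold in this interval.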

How the data were processed

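The deposited table gives expected counts of 3' tag reads per gene and library (QuantSeq 3' mRNA-seq V2, 65 ng of RNA), 12.8% of them not whole. GRCm39 is the build in the submitters' processing notes, which also list STAR 2.7.10a, cutadapt 3.5 and SAMtools; which annotation and filters were applied is not given in the sources used here. Columns carry letters that no label ties to replicate numbers, so each column of reads was assigned to its group only. The other 144 columns of per-sample values, among them the new-to-total ratio, were not used, and the planned comparison of labelled RNA is not analysed here. Counts were rounded, filtered with filterByExpr (12936 of 15737 genes), TMM-scaled and fitted with edgeR 4.0.16 in R 4.3.3 as 8 group means over 24 libraries; contrasts were tested by quasi-likelihood with Benjamini-Hochberg adjustment over all genes. The step was tested on simulated data.

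Alternatives were DESeq2 1.42.0, limma 3.58.1 on log2(CPM + 1) for the named genes and lists, library-size scaling, no filter, the 12 libraries alone, the column letter as a block, and each library left out. Counts cover 3' tags without molecular identifiers, so floors (3 counts over a group) cover counting error only. Chi-square per degree of freedom between libraries of 1 group was 31.9 to 47.6 in the 4 groups, so no library repeated another of its group. Libraries of different groups and of the later times were not compared in this way. Actb took 4.32% to 5.58% of reads in KO at 1 h and 5.62% to 6.49% in WT at 1 h. At 0 h its share was 4.1% to 4.37% in KO and 4.41% to 4.96% in WT. Symbols are the table's; 19 genes had none and 27 a repeated one.

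The members and the 18 gene lists were chosen with earlier results of these data known. Named were 14 core genes whether or not they passed, up to 8 called genes in each direction with a mean of at least 5 CPM, and called members of the cytokine, TTP target, immediate early and RNA decay lists. The 3' untranslated regions come from GENCODE M21 (GRCm38), the longest per gene, matched by gene ID. That is not the submitters' build, so no coordinates are given.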

Additional observations from a re-analysis of the deposited data

Results flagged for a closer look

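The test of the difference itself, the interaction of genotype and time in edgeR, singled out 8 genes whose first-hour change was not the same in KO and WT. The adjusted p was 0.000726 for Areg, 0.00235 for Il4, 0.00378 for Ccl3 and 0.0186 for Plaur, all with a more positive change in KO. It was 0.0325 for Ccl24, with a more positive change in KO, and 0.000726 for Edn1, 0.0186 for Col18a1 and 0.0325 for Prss37, with a more negative change in KO. In these last 4 at least 1 group held almost no reads, and the fitted fold changes of such genes depend on the prior count and are not given.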

How the results depend on the processing

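Against 5 higher and 3 lower differences of changes, DESeq2 called 43 and 47, the fit with no filter 9 and 12, and the fit on the 12 libraries alone 9 and 1; leaving out 1 library gave 3 to 7 and 2 to 6. limma on log2(CPM + 1) called 3 and 0. For KO, 159 higher and 195 lower became 333 and 323 with DESeq2 and 106 to 167 and 137 to 205 with 1 library left out. For WT, 136 and 166 became 323 and 278 with DESeq2, 93 to 151 and 111 to 172 with 1 library left out, and the lower count was 267 with the 12 libraries alone. The cause was not tested. Il4 and Areg passed in 18 of 18 alternatives. Ccl3, Plaur and Edn1 passed in 17, Col18a1 in 15, Ccl24 in 14 and Prss37 in 11. limma lost Ccl3 (adjusted p = 0.0711), Edn1, Ccl24, Prss37 and Col18a1 (1 each), the fit on the 12 libraries alone lost Ccl24 (0.997), Prss37 (0.997) and Col18a1 (0.653) and added 5 genes, and the fit without KO 0 h B lost Plaur (0.134). Il6 passed with DESeq2 alone (0.002). Csf1 reversed without WT 0 h C (-0.01503) and without KO 1 h A (-0.01204), uncalled in both, and lay between -0.01503 and 0.09092 with 1 library left out. Adding the column letter as a replicate block gave 5 higher and 3 lower. No pairing by letter was seen. Over 18 pairs of the same letter the correlation of deviations lay between -0.14 and 0.063, and over 36 pairs of different letters between -0.19 and 0.17. Of 12 libraries, 3 correlated best with their own letter. With 3 libraries per group this check cannot exclude a shared animal or day. Library-size scaling moved the median difference of all genes from -0.01 to -0.049.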
